A study of Mus musculus with 6 samples.

Results

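The genes described here are 10 that mark mast cells: the granule proteases Cpa3, Cma1, Mcpt4, Tpsb2 and Tpsab1, the IgE receptor chains Fcer1a and Ms4a2, the growth factor receptor Kit, and the amine-synthesis enzymes Hdc and Tph1. They were chosen by name, as the non-control probes whose gene name in the scanner files is one of the 10. All 10 were found, on 11 of 39389 probes, and all were among the 23676 genes tested. The samples are ear skin RNA (total) of 6 mice, each hybridised to its own one-colour array. The WT group (mice 1, 2 and 3) is sufficient for the NC16A segment of BP180, and the KO group (mice 1, 2 and 7) is deficient for it. BP180 is collagen XVII, the hemidesmosome collagen of basal keratinocytes, and the series title concerns its loss of function and skin inflammation. Age and sex were matched. The strain, the age, the extent of the deletion and the grade of inflammation of each ear are not given in the sources used here.

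Mast cells are tissue-resident immune cells of the dermis that store proteases, histamine and, in rodents, serotonin in granules. IgE bound to the receptor FcεRI, built from an alpha chain (Fcer1a), a beta chain (Ms4a2) and gamma chains (Fcer1g), triggers release of the granules when an antigen cross-links it. Kit, the receptor for stem cell factor, keeps mast cells alive and is also present on melanocytes. In bulk skin RNA, fewer mast cells and less RNA per mast cell cannot be told apart.

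Each value rests on the hybridisation of labelled RNA to a 60-base probe, and 9 of the genes had 1 probe each. The first 30 bases, 5′ to 3′, of the probes of the 3 genes that differed most and of 2 proteases that differed less show what was read, with positions of the whole probe on mm9.
Fcer1a (chr1:175151438-175151497, minus strand): caggaattgcataaatgcttcattaaacca
Hdc (chr2:126419516-126419575, minus strand): ttgatcataacctcacagggtcttcgtgat
Tph1 (chr7:53902553-53902612, minus strand): tacttctgttttgtcttctggaacctgctg
Cpa3 (chr3:20115674-20115733, minus strand): gccaagtatatcctcaagaatacttcctaa
Mcpt4 (chr14:56678589-56678648, minus strand): tgaaagatgaattctgtgatgatggactgt
Of the 11 member probes, 10 shared no stretch of 20 bases with a probe of another gene on the array. The Mcpt4 probe shared 27 bases with the probe of Mcpt-ps1, a mast cell protease pseudogene, so signal at these probes may not be fully separate. The tryptase genes Tpsb2 and Tpsab1 are close relatives, and the best ungapped overlap between the Tpsab1 probe and the dimmer Tpsb2 probe is 22 bases long. It is shown with the 6 bases that differ in capitals. Probes were compared with probes and not with the other gene's transcript, so whether the tryptase signals are separate was not tested.
Tpsab1 (chr17:25480640-25480699, minus strand): tGtCcAcattgtccGAgatgAc
Tpsb2 (chr17:25504493-25504552, plus strand): tTtTcCcattgtccATgatgGc

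Well-above-background spots made up 72.6% to 78.2% of an array, and no spot was saturated. Values are processed signals relative to the 75th percentile of their array, in log2 units, so that 1 unit is a 2-fold difference. Levels of different probes are not comparable. KO 1 was hybridised on the slide that held every WT array (slide 1), whereas KO 2 and KO 7 were on slide 2. All 5 keratinocyte genes and all 5 dermal fibroblast genes examined were well above background on all 6 arrays. Of the 10 mast cell genes, 9 were well above background on all 6 arrays, and Ms4a2 was so on 5.

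No mast cell gene passed the test between KO and WT. In limma, with Benjamini-Hochberg adjustment over all genes tested, 0 of 10 passed at an adjusted p under 0.05, where 2.37% of all genes did (1.98% higher and 0.389% lower in KO). At an unadjusted p under 0.05 there were 3, Fcer1a, Hdc and Tph1, all higher in KO, where 16.9% of all genes were called higher and 9.73% lower. The KO values of the same 3 lay wholly above the WT values, which held for 21.4% of all genes, and no mast cell gene's lay wholly below, which held for 14% of all genes. With slide as a fixed block the difference rests on KO 1 against the WT arrays, as slide 2 holds no WT array. With arrays weighted by their quality 5 of the 10 passed, all higher in KO, where 19.2% of all genes were called higher. The mean was higher in KO for 8 of the 10 genes and for 55.1% of all genes. The median difference, KO minus WT, was 0.51 over the 10 genes and 0.05 over all genes tested. It was 0.24 without KO 7, 0.77 without WT 3 and 0.84 without KO 1. For KO 1 alone against the WT arrays of its slide it was -0.06, with 4 of 10 genes higher.

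**Figure D1:**
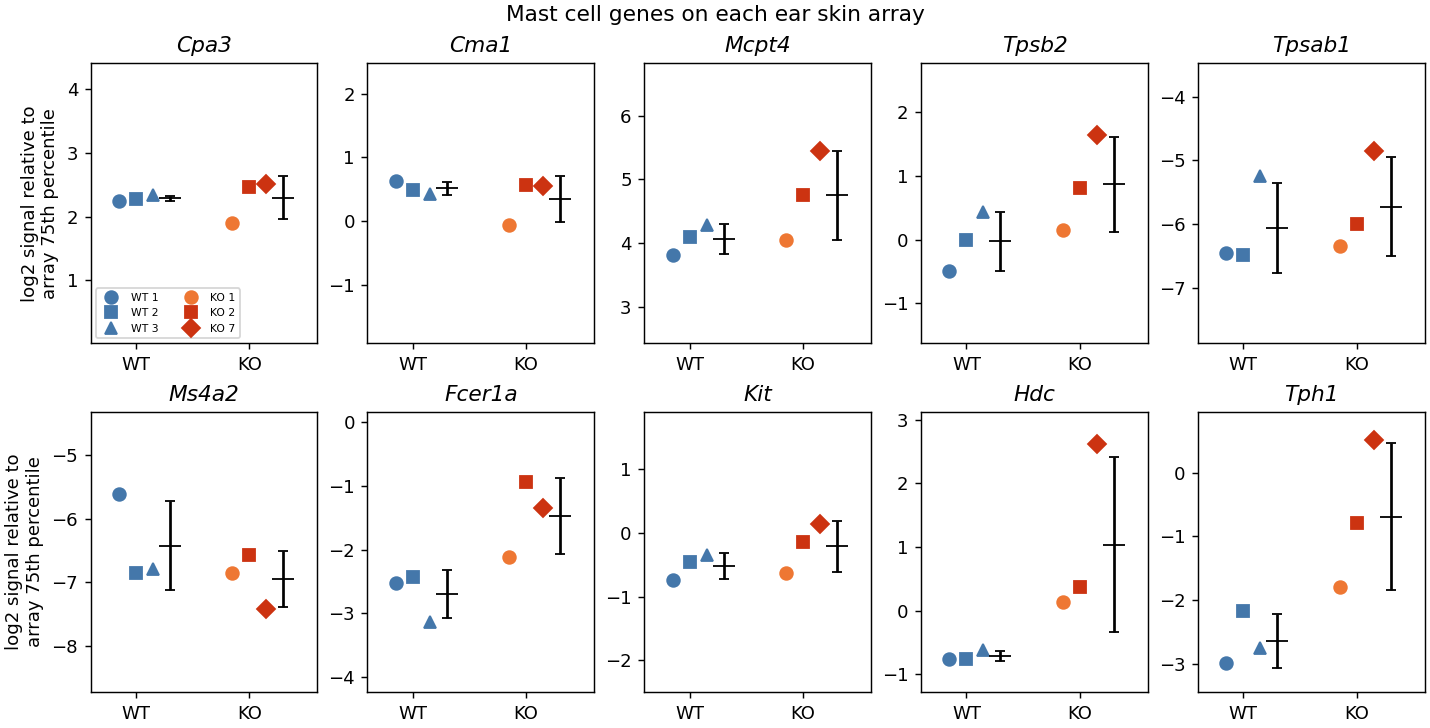
Signal of the 10 mast cell genes on each of the 6 ear skin arrays, in log2 units above or below the 75th percentile of that array. Points are single mice, black marks are the group mean with its SD (n = 3), and every panel spans the same number of log2 units. Fcer1a, Hdc and Tph1 are the genes whose KO points all lie above all WT points.

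Cpa3 and Cma1 had the smallest fitted differences of the 10 genes. Cpa3 encodes carboxypeptidase A3, a metalloprotease stored in the granules. Its signal was 2.25, 2.29 and 2.34 in WT 1, 2 and 3, against 1.91, 2.46 and 2.52 in KO 1, 2 and 7. KO 1 was below all WT arrays and the other KO arrays were above them. This order depends on the scaling. In intensity units the processed signal of Cpa3 ran from 25714 to 31716 in WT and from 16576 to 22982 in KO. The 75th percentile of the arrays was also lower in KO (3806 to 4416) than in WT (5276 to 6656). The difference was 0.01 ± 0.19 (SE of the limma fit, as for all differences; n = 3 per group), with a 95% interval from -0.45 to 0.46 (adjusted p = 0.99). Its sign was not stable, with 9 of the alternative fits giving a value below 0.

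Cma1 encodes mast cell protease 5, a member of the chymase family. Its signal was 0.63, 0.49 and 0.42 in WT 1, 2 and 3, against -0.07, 0.57 and 0.55 in KO 1, 2 and 7. KO 1 was again the lowest array, while KO 2 and KO 7 lay within the WT range. Before scaling, the processed signal of Cma1 ran from 7389 to 10306 in WT and from 4217 to 6182 in KO. The difference was -0.16 ± 0.20, with an interval from -0.65 to 0.32 (limma adjusted p = 0.62).

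Mcpt4 encodes the main chymase of connective tissue mast cells in mice. Its signal was 3.81, 4.09 and 4.28 in WT 1, 2 and 3, against 4.05, 4.75 and 5.44 in KO 1, 2 and 7. KO 2 and KO 7 were above all WT arrays, and KO 1 was among them. In intensity units the processed signal ran from 89808 to 106916 in WT and from 73311 to 165489 in KO. The difference was 0.69 ± 0.35 and did not pass, with an interval from -0.14 to 1.52 (limma adjusted p = 0.24). It was 0.34 without KO 7 and 1.04 without KO 1, and for KO 1 against the WT mean it was -0.01. The pseudogene Mcpt-ps1 differed by 0.69 ± 0.41 (limma adjusted p = 0.31).

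The tryptases are the other protease class of the granule. Tpsb2, the gene of mast cell protease 6, had 2 probes. The brighter read -0.50, -0.01 and 0.43 in WT 1, 2 and 3, against 0.15, 0.82 and 1.64 in KO 1, 2 and 7. The groups overlapped through KO 1, and KO 7 was the highest array. The difference was 0.90 ± 0.41, with an interval from -0.08 to 1.87 (limma adjusted p = 0.21), and the other probe, tested alone, gave 0.61 ± 0.34. Without KO 7 the difference at the brighter probe was 0.51. Tpsab1, the gene of mast cell protease 7, is inactive in some laboratory strains such as C57BL/6. Its signal was -6.46, -6.49 and -5.24 in WT 1, 2 and 3, against -6.34, -5.99 and -4.85 in KO 1, 2 and 7. Each value lay within 3 log2 units of the lowest signal well above background, which was -8.37 to -7.05 across the arrays. The Tpsab1 difference of 0.33 ± 0.49 had an interval from -0.83 to 1.49 (limma adjusted p = 0.67).

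Neither IgE receptor chain passed. Fcer1a, whose product binds IgE, read -2.52, -2.43 and -3.13 in WT 1, 2 and 3, against -2.11, -0.93 and -1.35 in KO 1, 2 and 7. The groups did not overlap, and KO 1 was the KO array nearest to WT. The difference was 1.23 ± 0.34, or 2.35-fold, with an interval from 0.43 to 2.03, and it did not pass (limma adjusted p = 0.10). Without KO 1 it was 1.55 and passed (limma adjusted p = 0.045), where 3.04% of all genes were called higher. In that fit each group sits on a slide of its own, so slide and group cannot be told apart. For KO 1 against the WT mean the difference was 0.59.

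Ms4a2, the beta chain that amplifies the receptor's signal, was dim. It read -5.62, -6.86 and -6.79 in WT 1, 2 and 3, against -6.84, -6.57 and -7.42 in KO 1, 2 and 7, and 2 of 3 KO arrays were well above background. WT 1 was the highest array and the remaining 5 overlapped. The difference was -0.52 ± 0.39, with an interval from -1.44 to 0.40 (limma adjusted p = 0.40). Without WT 1 it was -0.12, without KO 7 -0.28, and with normexp background -0.055. The gamma chain gene Fcer1g, which other myeloid cells also express, differed by 0.25 ± 0.34 (limma adjusted p = 0.64).

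Kit read -0.74, -0.46 and -0.36 in WT 1, 2 and 3, against -0.64, -0.15 and 0.14 in KO 1, 2 and 7. The groups overlapped through KO 1. The difference was 0.31 ± 0.23, with an interval from -0.24 to 0.85 (limma adjusted p = 0.40). It was 0.13 without KO 7, 0.20 without WT 1 and 0.52 without KO 1. Melanocytes carry Kit as well. The mean was higher in KO for 4 of 6 melanocyte markers, against 55.1% of all genes, and the markers' median difference was 0.50. The mean of the melanocyte list relative to its WT mean ran from -0.22 to 0.17 on the WT arrays and was -0.16, 0.34 and 1.0 in KO 1, 2 and 7. Tyr, the tyrosinase gene, differed by -0.37 ± 0.14 and Pmel, a melanosome gene, by 0.84 ± 0.39, and neither passed. The part of melanocytes in the Kit signal was not tested.

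The genes of the amine-making enzymes had the highest fitted differences of the 10. Hdc encodes histidine decarboxylase, which makes histamine. It read -0.75, -0.76 and -0.61 in WT 1, 2 and 3, against 0.13, 0.37 and 2.61 in KO 1, 2 and 7. The WT arrays lay close together, the KO arrays were all above them, and KO 7 stood apart from the other KO arrays. The WT mean was -0.71 ± 0.084 (SD, n = 3), and the KO mean was 1.04 ± 1.37 (SD, n = 3). The difference was 1.75 ± 0.63, or 3.36-fold, with an interval from 0.25 to 3.24, and did not pass (limma adjusted p = 0.15). Without KO 7 it was 0.96 and passed (limma adjusted p = 0.043), where 1.77% of all genes were called higher. For KO 1 against the WT mean it was 0.84.

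Tph1 encodes tryptophan hydroxylase 1, the rate-limiting enzyme of serotonin synthesis outside the nervous system. It read -2.99, -2.17 and -2.76 in WT 1, 2 and 3, against -1.79, -0.79 and 0.51 in KO 1, 2 and 7. All KO arrays were above all WT arrays, and KO 7 was the highest. The difference was 1.95 ± 0.56, or 3.86-fold, with an interval from 0.61 to 3.29, and did not pass (limma adjusted p = 0.11). It passed without KO 1, at 2.50 (limma adjusted p = 0.047), where 3.04% of all genes were called higher. In that fit each group again sits on a slide of its own, so slide and group cannot be told apart. For KO 1 against the WT mean the Tph1 difference was 0.85.

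**Figure D2:**
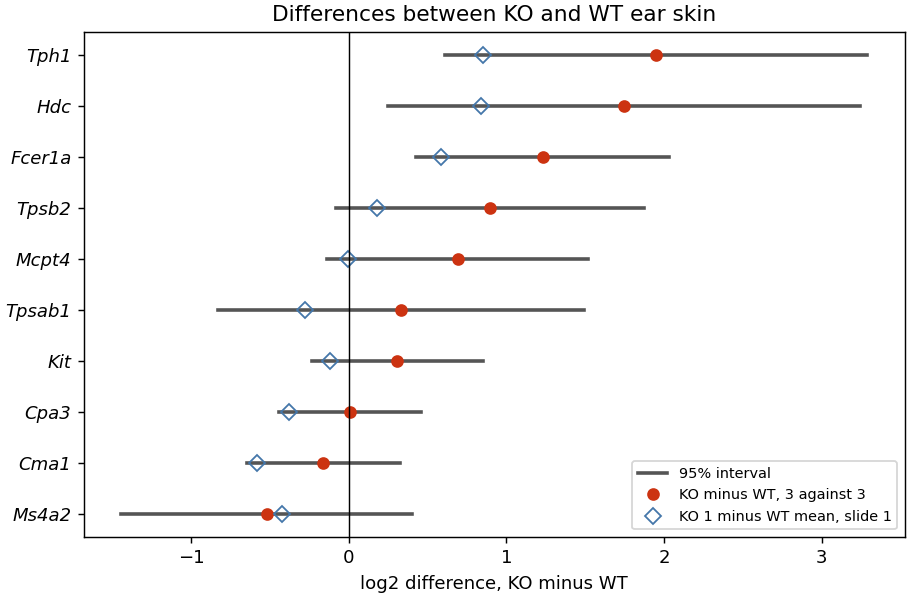
Difference of each mast cell gene between KO and WT ear skin in log2 units, ordered by size. Filled points are the fitted difference of 3 against 3 mice with its 95% interval, and open diamonds are KO 1 minus the mean of the 3 WT arrays of the same slide. Intervals of Fcer1a, Hdc and Tph1 lie above 0, and 6 of 10 diamonds lie below 0.

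Neutrophils and basophils also make histamine, and the mean of the neutrophil marker list, like Hdc, was higher on each KO array than on any WT array. Relative to the WT mean, the neutrophil list was at -0.53 to 0.64 on the WT arrays and at 1.28, 1.19 and 2.28 in KO 1, 2 and 7, so KO 7 was highest in both. Such a separation of KO from WT was not particular to neutrophils. The fibroblast list was at 0.14, 0.31 and 0.71 and the keratinocyte list at 0.30, 0.68 and 0.53 in KO 1, 2 and 7. Their highest WT arrays were at 0.12 and 0.11. Of all genes, 21.4% had all KO values above all WT values. Of 8 neutrophil markers tested, 1 rose, 0 fell and 7 did not pass, with a median difference of 1.15, where 1.98% of all genes were higher and 0.389% lower. Over the 6 markers well above background on all 6 arrays, a subset taken after the values were seen, the median was 0.44. The mean of those 6 was -0.23 to 0.28 on the WT arrays and 0.57, 0.58 and 1.16 in KO 1, 2 and 7. The chemokine receptor gene Cxcr2 rose by 2.05 ± 0.26 (limma adjusted p = 0.015). Its limma adjusted p was 0.15 under the replicate block, which compares WT 1 and WT 2 with KO 1 and KO 2 alone. It was 0.063 to 0.076 when WT 2, WT 3 or KO 2 was left out. With slide as a block, which leaves KO 1 against the WT arrays, the difference was 1.51. The other 2 markers, the collagenase gene Mmp8 and the resistin-like gene Retnlg, were well above background on 2 of 3 WT arrays, so their fitted differences of 3.80 ± 0.81 and 4.27 ± 1.37 rest in part on background-level signal (limma adjusted p = 0.066 and 0.13). Ly6g, the surface marker that defines mouse neutrophils, was named after its value was seen and differed by -0.35 ± 0.15 (limma adjusted p = 0.19), with all KO arrays below all WT arrays. Mpo, likewise named after its value was seen, differed by 1.85 ± 0.48 (limma adjusted p = 0.093), with all KO arrays above all WT arrays. Of the 8 markers, 7 had a higher mean in KO, against 55.1% of all genes. Of 5 basophil markers tested none passed in limma, with a median difference of 0.27. At an unadjusted p under 0.05, 1 was higher, where 16.9% of all genes were called higher. The basophil list mean, relative to WT, was 0.011, 0.26 and 0.60 in KO 1, 2 and 7. Il3ra, the IL-3 receptor chain, differed by 0.76 ± 0.27 and Il4 by 0.33 ± 0.22. Mcpt8, the defining basophil protease gene, was well above background on 0 of 3 WT and 2 of 3 KO arrays and was not tested. The part of these cells in the Hdc difference was not tested.

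The other marker lists gave no call among their tested genes in limma. Medians were -0.11 for 5 eosinophil, -0.20 for 5 macrophage, 0.46 for 4 T cell, 0.23 for 4 general leukocyte, 0.42 for 5 fibroblast and 0.50 for 5 keratinocyte genes. They were -1.12 for 4 adipocyte and -0.62 for 4 skeletal muscle genes. At an unadjusted p under 0.05, 11 of their 36 genes were higher and 5 lower, against 16.9% and 9.73% of all genes. The genes of smallest p were Ear6 (0.68) and Il5ra (0.53) for eosinophils, Cd68 (-1.05) and Cd163 (-1.0) for macrophages, and Cd3g (0.48) and Cd3d (0.61) for T cells. They were Laptm5 (0.87) and Coro1a (0.61) for leukocytes, Col1a2 (0.67) and Col1a1 (0.54) for fibroblasts, and Krt1 (1.16) and Krt5 (0.54) for keratinocytes. For adipocytes they were Adipoq (-1.31) and Lep (-1.5), and for skeletal muscle Ckm (-0.98) and Acta1 (-0.81), all in log2 difference, KO minus WT. The part of such tissue differences in the mast cell values was not tested.

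Relative to Cpa3, 7 of the other 9 mast cell genes had a higher mean in KO. This comparison, chosen after the values were seen, divides each gene's signal by that of Cpa3 on the same array and needs no scaling between arrays. Only changes of a ratio between arrays can be read, and all 9 ratios share the Cpa3 values, of which that of KO 1 was the lowest. Mcpt4 minus Cpa3 was 1.56, 1.80 and 1.94 in WT 1, 2 and 3, against 2.14, 2.29 and 2.93 in KO 1, 2 and 7. KO 1, which overlapped the WT arrays for Mcpt4 itself, was above them here. Tpsb2 minus Cpa3 was -2.75, -2.29 and -1.91 in WT 1, 2 and 3, against -1.76, -1.65 and -0.88 in KO 1, 2 and 7. Kit minus Cpa3 was -2.99, -2.75 and -2.69 in WT 1, 2 and 3, against -2.55, -2.61 and -2.37 in KO 1, 2 and 7. The mean KO minus WT change of these ratios was 0.68 for Mcpt4, 0.89 for Tpsb2 and 0.30 for Kit. With Fcer1a, Hdc and Tph1, 6 of 9 genes had all KO ratios above all WT ratios, where 19.9% of all genes did, and none had them wholly below, where 2.4% of all genes did. Each of the 6 had an exact permutation p of 0.10 (two-sided) and 0.15 after adjustment over the 9 comparisons. As 0.10 is the smallest p that 3 against 3 arrays can give, this test could not pass the threshold whatever the values. No conclusion is drawn from it. Before division by Cpa3, Mcpt4, Tpsb2 and Kit overlapped between the groups through KO 1, whose Cpa3 value was the lowest. The ratios of Cma1, Tpsab1 and Ms4a2 overlapped between the groups, with changes of -0.17, 0.33 and -0.53.

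**Figure D3:**
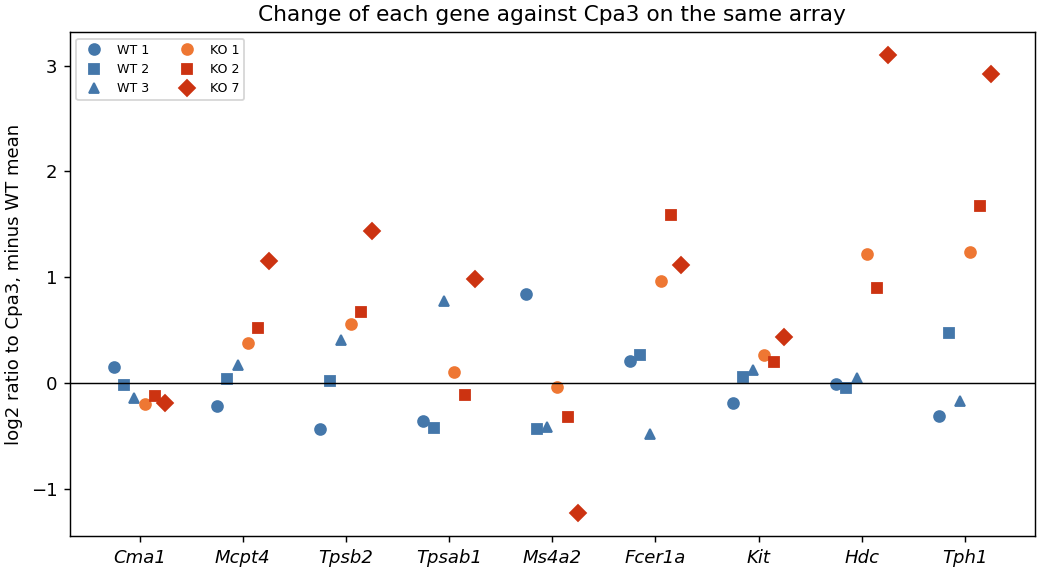
Log2 ratio of each mast cell gene to Cpa3 on the same array, with the mean WT ratio of that gene set to 0. Points are single mice. All 3 KO points lie above all 3 WT points for Mcpt4, Tpsb2, Fcer1a, Kit, Hdc and Tph1.

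Genes outside the 10 were ranked by how closely they followed the mean profile of the 5 proteases over the 6 arrays. That profile, with each gene centred on its mean, was -0.38, -0.26 and 0.11 in WT 1, 2 and 3, against -0.39, 0.19 and 0.73 in KO 1, 2 and 7. Of 15793 named genes well above background on all 6 arrays, Emid1, an extracellular matrix gene, was the closest, with a root mean square difference of 0.068. Wnt5a, a Wnt ligand gene, followed at 0.069, Il2rg, the common cytokine receptor chain, at 0.078, the leukocyte phosphatase gene Ptpn7 at 0.081 and the G protein subunit gene Gng2 at 0.086. Kit was at 0.13, with 52 genes closer. The proteases, themselves part of the profile, were at 0.19 for Mcpt4, 0.27 for Cpa3, 0.32 for Tpsb2 and Tpsab1 and 0.37 for Cma1, with 401 to 5897 genes closer. Fcer1a was at 0.63, Ms4a2 at 0.85, and Hdc and Tph1 at 0.88 and 0.92, with 12925 to 15127 genes closer.

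Promoter windows were examined for GATAA, the core of the site bound by GATA factors such as GATA2, a transcription factor that mast cells need. RefSeq (GRCm38.p6) gave the 250 bases before the start for 8 of the 10 genes. GATAA on either strand was present for 5 of the 8, namely Cpa3, Cma1, Mcpt4, Fcer1a and Ms4a2, and in 22.6% of all 32851 promoter windows of that length. None of the windows of Kit, Hdc or Tph1 held it. The letters TATAAA, on the gene strand, were in the windows of 3 genes and in 7.59% of all windows. Mast cell genes are counted here by gene and the shares over all by window, so they are not like for like. The windows of a protease that differed little, of the chymase Mcpt4 and of the receptor chain Fcer1a are shown, 5′ to 3′ on the gene's strand, with GATAA or its complement TTATC in capitals.
Cpa3 (chr3:20242182-20242431, minus strand): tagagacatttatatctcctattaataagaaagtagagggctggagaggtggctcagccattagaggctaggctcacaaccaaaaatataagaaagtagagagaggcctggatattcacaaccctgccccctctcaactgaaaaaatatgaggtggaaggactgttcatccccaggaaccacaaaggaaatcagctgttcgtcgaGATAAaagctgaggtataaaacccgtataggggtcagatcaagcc
Mcpt4 (chr14:56062311-56062560, minus strand): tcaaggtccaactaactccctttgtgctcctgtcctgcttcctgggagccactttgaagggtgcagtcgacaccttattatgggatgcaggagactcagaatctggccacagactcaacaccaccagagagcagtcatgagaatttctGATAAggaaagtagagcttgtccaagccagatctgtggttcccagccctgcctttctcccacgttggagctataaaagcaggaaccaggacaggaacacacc
Fcer1a (chr1:173227230-173227479, minus strand): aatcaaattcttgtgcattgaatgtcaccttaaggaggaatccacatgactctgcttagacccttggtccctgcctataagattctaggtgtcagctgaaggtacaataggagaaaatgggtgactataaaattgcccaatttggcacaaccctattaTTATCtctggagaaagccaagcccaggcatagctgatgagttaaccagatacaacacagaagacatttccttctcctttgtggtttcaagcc
The match lies 45 bases before the start in Cpa3, 102 in Mcpt4 and 92 in Fcer1a. A match is a run of letters and was not tested for binding.

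Of the other genes of the pathway, 68 in 6 lists, 62 were tested and 1 passed. That gene was well above background on no KO array. In limma 0 rose and 1 fell, against 1.98% and 0.389% of all genes, and 13 were higher and 6 lower at an unadjusted p under 0.05, against 16.9% and 9.73% of all genes. The KO values of 11 lay wholly above the WT values and those of 7 wholly below them, against 21.4% and 14% of all genes. These shares of the lists lie near those of all genes. The mean was higher in KO for 42 of the 62 and for 55.1% of all genes. The median over the 62 was 0.24, and for KO 1 against the WT mean it was -0.00067.

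The gene that fell, Slc22a3, encodes a transporter that takes up histamine and serotonin. It read -7.36, -6.50 and -6.89 in WT 1, 2 and 3, against -8.69, -8.69 and -9.67 in KO 1, 2 and 7. It was well above background on all 3 WT arrays and on no KO array, so it entered the test through its WT values alone, and it was not among the genes tested when all 6 arrays had to be well above background. The fitted difference was -2.10 ± 0.34 (limma adjusted p = 0.034) and rests on background-level KO signal. Against the background of the KO arrays Slc22a3 was at least 1.45-fold lower in KO, a bound that was not itself tested. Normexp background gave a difference of -0.27 and no call (limma adjusted p = 0.33). It also lost the call with no filter (adjusted p = 0.071), when slide entered as a block (adjusted p = 0.38) and under the replicate block (adjusted p = 0.15). The same held when WT 2, WT 3 or KO 2 was left out (adjusted p = 0.076 to 0.12). Hnmt, which encodes the histamine-inactivating methyltransferase, read -0.80, -0.98 and -1.13 in WT 1, 2 and 3, against -1.40, -2.0 and -2.33 in KO 1, 2 and 7. All KO arrays were below all WT arrays, and the difference of -0.94 ± 0.25 did not pass (limma adjusted p = 0.096). Over the 8 tested genes of histamine and serotonin handling the median was -0.14, while Hdc and Tph1 had higher means in KO.

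Other granule genes had a median of 0.51, with 7 of 8 higher in KO, against 55.1% of all genes. None passed the threshold in limma. Their median for KO 1 against the WT mean was 0.084. Mcpt1, a mucosal mast cell protease gene, differed by 1.59 ± 0.57 and was well above background on 2 of 3 arrays in each group. Slc18a2, the transporter that loads amines into granules, read -2.46, -2.44 and -2.24 in WT 1, 2 and 3, against -2.28, -1.68 and -1.59 in KO 1, 2 and 7, a difference of 0.53 ± 0.21 (limma adjusted p = 0.17). KO 1 lay within the WT range for it. Mcpt2 and Mcpt9 were not tested, as they were well above background on 1 and 0 arrays.

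The surface receptor list, which also holds the signalling regulator gene Rgs13 (-0.42), had a median of 0.24 over 12 tested genes. Of these, 8 were higher, against 55.1% of all genes, and for KO 1 against the WT mean the median was -0.11. Mrgprb2, the receptor through which mast cells of mouse connective tissue respond to basic compounds and peptides, had a lower mean in KO. It read -2.88, -3.50 and -3.32 in WT 1, 2 and 3, against -3.82, -3.86 and -4.41 in KO 1, 2 and 7. All KO arrays were below all WT arrays, and the difference of -0.79 ± 0.24 did not pass (limma adjusted p = 0.11). Siglech, known from plasmacytoid dendritic cells, differed by 0.74 ± 0.23 (limma adjusted p = 0.12).

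IgE receptor signalling genes, which other leukocytes share, had a median of 0.26 over 16 tested genes. Of these, 13 were higher, against 55.1% of all genes. For KO 1 against the WT mean the median was -0.015. The list mean, relative to WT, was -0.045, 0.21 and 0.66 in KO 1, 2 and 7. The adaptor gene Lat read -2.39, -2.38 and -2.0 in WT 1, 2 and 3, against -1.67, -1.21 and -0.42 in KO 1, 2 and 7, with no overlap. Its difference of 1.16 ± 0.32 did not pass (limma adjusted p = 0.10), and T cells also use Lat. Fcgr3, a low-affinity IgG receptor gene, differed by -0.69 ± 0.21 (limma adjusted p = 0.12).

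The list of Kit ligand and mast cell transcription factors had a median of 0.59 over 9 genes. Of these, 6 were higher, against 55.1% of all genes. For KO 1 against the WT mean the median was 0.071. Tal1 differed by 0.82 ± 0.23 (limma adjusted p = 0.10) and Runx1 by 0.69 ± 0.27 (limma adjusted p = 0.17), each with all KO arrays above all WT arrays. Genes of prostaglandin D2 and leukotriene synthesis and response had a median of 0.09 over 9 genes. Of these, 5 were higher, against 55.1% of all genes. For KO 1 against the WT mean the median was 0.038. Ptgds, a prostaglandin D synthase gene, differed by 0.81 ± 0.24 and Ptgdr2, a prostaglandin D2 receptor gene, by 1.5 ± 0.47, and neither passed (limma adjusted p = 0.11 and 0.12).

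**Figure D4:**
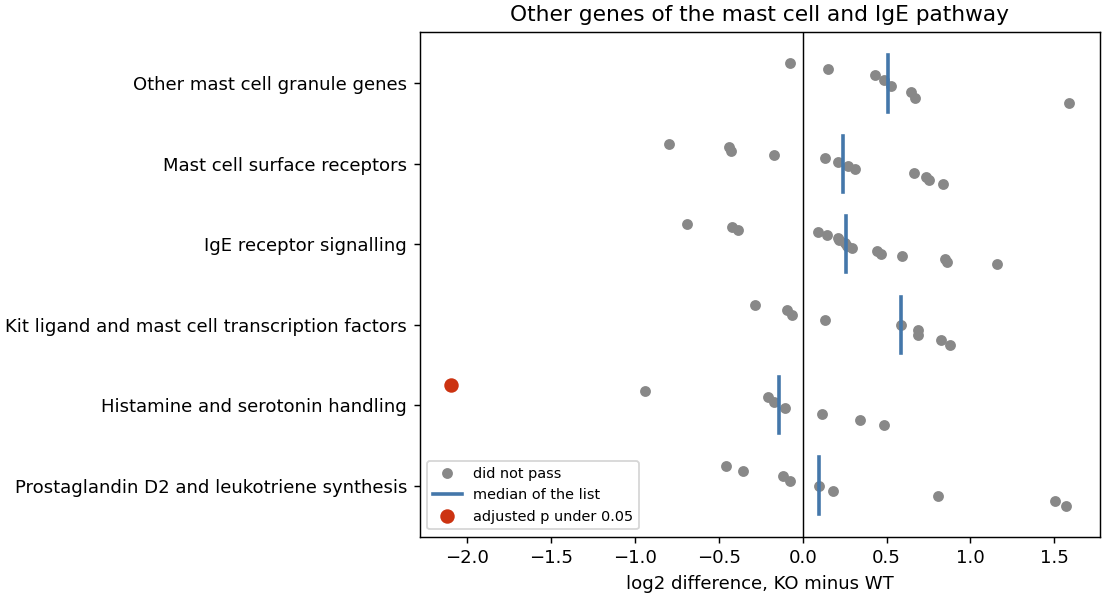
Difference between KO and WT ear skin, in log2 units, for the tested genes of 6 mast cell and IgE pathway lists. Each point is a gene, the vertical bar is the median of the list, and the single larger point is Slc22a3, the only gene of these lists with an adjusted p under 0.05. Slc22a3 was well above background on no KO array, so its plotted difference rests on background-level KO signal.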

How the data were processed

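Total RNA from mouse ear skin was measured on 6 one-colour Agilent arrays, and groups and numbers come from the sample titles. RNA was extracted with Qiagen RNeasy kits, per the labels' protocols. The deposited scanner files give processed signals as intensity values. The authors' software was Agilent Feature Extraction 10.7.3.1, which, per the file headers, subtracted background, removed spatial trends and set surrogates for low values, and applied no scaling across arrays. Surrogates and background limit low signals, and the number of arrays limits precision. The deposited series matrix held equal values for all 43340 features.

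Control spots and 170 to 249 outlier spots per array were left out, and spots of a probe were averaged. Signals were put on the log2 scale relative to the 75th percentile over the probes of each array, which was 5276 to 6656 in WT and 3806 to 4416 in KO. The filter kept the 29602 probes that at least 3 of 6 arrays showed well above background, and the brightest kept probe stood for each of 23676 genes. The groups were compared with limma 3.58.1 (R 4.3.3), two-sided, with Benjamini-Hochberg adjustment and no covariate. The labels do not mention litters. Each array is 1 mouse. Sequences came from the scanner files and RefSeq.

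Genes named were all members and, in each list, passing genes, and the 2 of smallest p if fewer than 2 passed. Fcer1g (the third receptor chain), Ly6g, Retnlg, Mpo, Rgs13 and Mcpt-ps1 were added outside this rule. Members and lists were chosen with earlier results of these data known. Alternatives varied background, scaling, filter, probe choice, slide and replicate block, variance model, threshold and each mouse left out. Correlations of the deviations of WT 1 with KO 1 and of WT 2 with KO 2 were 0.083 and 0.054, so shared numbers were not taken as pairs.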

Additional observations from a re-analysis of the deposited data

How the results depend on the processing

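The median over the 10 mast cell genes was 0.51 and was 0.24 to 0.84 without 1 mouse. It moved by more than the replicate spread only for KO 1 against the WT arrays of slide 1, where it was -0.061. Slide as a fixed block gives this same estimate, as slide 2 holds no WT array. The count of mast cell genes past the threshold was 0 higher and 0 lower, and it changed to 5 higher with array weights (Fcer1a, Hdc, Tph1, Mcpt4 and Tpsb2), where 19.2% of all genes were called higher. Leaving out each mouse in turn gave 0 to 2 higher. Over all genes, 469 were higher and 92 lower. The higher count was 860 with normexp background, 269 with no filter, 158 with slide as a fixed block, 4546 with array weights and 1570 at an adjusted p under 0.10, and from 183 to 719 without 1 mouse. The lower count was 149 with the array median as scale, 27 with no filter, 3076 with array weights and 471 at an adjusted p under 0.10. It was 19 to 254 without 1 mouse. With the replicate block 0 genes were higher and 0 lower, and no mast cell gene passed. Of the other pathway genes, 0 were higher and 1 lower. With array weights 13 were higher and 8 lower, and at an adjusted p under 0.10 2 were lower. The lower count was 0 with normexp, no filter, the filter on all 6 arrays and the replicate block. Without 1 mouse the lower count was 0 to 2 and the higher count was 0 to 2. The cause of these changes was not tested.

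Signs changed only for differences that had not passed. Cpa3 was -0.044 with normexp, -0.040 with quantile normalization, -0.13 with the array median, -0.082 with the replicate block, -0.38 with slide as a fixed block, -0.012 with slide as a random block and -0.10 to 0.20 without 1 mouse. Cma1 was 0.021 with array weights and -0.27 to 0.047 without 1 mouse. With slide as a fixed block Kit was -0.12, Mcpt4 -0.0058 and Tpsab1 -0.28. Tpsab1 was -0.10 to 0.74 without 1 mouse, and Ms4a2 was 0.030 with array weights. The array median moved the median of all genes from 0.05 to -0.08.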
